A study of Mus musculus with 2 samples.

Results

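The Sox genes described here are a group of transcription factor genes chosen by name: Sox2 and Sox9 for progenitors, Sox4, Sox11 and Sox5 for neurons, and Sox6 for interneurons. Of the 6 genes, 5 had at least 1 probe set carrying that gene symbol alone, and together they had 8 of the 12488 probe sets. Sox9 was not analysed here, so Sox2 is the only progenitor gene with a value. The samples were cerebral cortex from homozygous Pax6-/- embryos and from wild type embryos, both of the NMRI strain and at embryonic stage E14.5. Each genotype had 1 Affymetrix array of biotin-labelled RNA, made from 6 µg of total RNA. RNA came from 3 embryos of each genotype by the design text; pooling on the array and the Pax6 allele are not given in the labels.

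Sox proteins bind DNA through a high-mobility-group domain and fall into lettered subgroups by the sequence of that domain. In the developing cortex Sox2, of subgroup B1, is expressed in dividing radial glia and helps to keep them in the progenitor state. Sox4 and Sox11, of subgroup C, are switched on in newborn neurons and promote pan-neuronal genes. Sox5 and Sox6 belong to subgroup D. Sox5 marks subplate and deep-layer neurons and controls the timing of their production. Sox6 acts in interneurons that migrate in from the ventral telencephalon, and is also found in cortical progenitors.

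Sox2 was higher in the Pax6-/- cortex, and all 3 measured neuronal genes were lower. The Sox2 signal was 5041.7 in the mutant against 2304.5 in wild type, a raw ratio of 2.19. Fold values are given after adding a constant to both signals and centring, as described below, and Sox2 was then 2.08-fold higher. By their brightest probe sets Sox11 was 1.76-fold lower and Sox4 1.55-fold lower. Sox5, with 1 probe set, was 1.96-fold lower, and its raw ratio was 0.39, past 2-fold. It passed the signal filter described below only through its wild type signal. Sox6 had probe sets on opposite sides of equality. Since each genotype has a single array, differences could not be tested and none has a replicate check.

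The stretches before the start sites of Sox2, Sox4 and Sox11 are shown because these are the 3 genes measured at bright signals, one higher and the pair of subgroup C lower. Each is the 250 bases before the annotated RefSeq start on GRCm38.p6. Capitals mark CCAAT boxes (read as CCAAT or, on the other strand, ATTGG) and the Sox core ACAAAG (or CTTTGT). The Sox2 stretch is chr3:34649745-34649994 on the plus strand, the Sox4 stretch chr13:28953700-28953949 on the minus strand and the Sox11 stretch chr12:27342719-27342968 on the minus strand.
Sox2: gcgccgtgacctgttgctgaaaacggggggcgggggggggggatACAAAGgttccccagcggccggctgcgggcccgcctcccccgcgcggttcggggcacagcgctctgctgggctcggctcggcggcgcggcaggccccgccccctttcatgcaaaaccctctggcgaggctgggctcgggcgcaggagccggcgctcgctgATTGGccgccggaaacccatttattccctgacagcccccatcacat
Sox4: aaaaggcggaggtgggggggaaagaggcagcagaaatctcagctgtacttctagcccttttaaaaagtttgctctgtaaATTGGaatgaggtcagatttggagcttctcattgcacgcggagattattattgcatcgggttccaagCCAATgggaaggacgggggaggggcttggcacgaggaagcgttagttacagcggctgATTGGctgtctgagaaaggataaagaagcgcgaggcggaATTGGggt
Sox11: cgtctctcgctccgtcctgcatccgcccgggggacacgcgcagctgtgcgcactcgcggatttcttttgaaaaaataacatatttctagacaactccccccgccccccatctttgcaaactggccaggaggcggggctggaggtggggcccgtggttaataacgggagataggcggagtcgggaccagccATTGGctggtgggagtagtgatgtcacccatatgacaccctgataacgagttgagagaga
A CCAAT box occurred once before Sox2 and once before Sox11, at 46 and 60 bases before the start, and 4 times before Sox4. At least 1 copy is found in 33.8% of 32851 RefSeq start-site windows of this length. The Sox core occurred once in these 3 stretches, before Sox2, and is found in 16.5% of windows. Among the windows not shown, it also occurred before most of the 6 Sox6 start sites. It was absent before the only Sox5 start site scanned, which lies inside the gene. The stretch before the annotated upstream end of Sox5 was not scanned. TAAT, the core of many homeodomain sites, was absent before Sox2, occurred once before Sox11 and in 2 overlapping copies before Sox4, against 54.9% of windows with at least 1. CCAAT and ACAAAG did not overlap in these stretches. The matches describe letters, and binding was not measured. The table held start sites for 5 of the 6 genes.

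Values are MAS5 signals, the Affymetrix summary of a probe set's brightness on a linear scale. Each log2 ratio is mutant over wild type, after adding a pseudocount of 81.51 to both signals, and is centred on the median of the probe sets that passed a signal filter. The pseudocount draws the ratio of a dim gene closer to equality than the ratio of its raw signals. The filter required a mean over both arrays of about 165.8, and 7 of the 8 Sox probe sets, covering all 5 genes, passed it. The disagreement between a gene's own probe sets served as a technical spread. It was 0.38 on the log2 scale in the brightest of 3 signal classes and 0.72 in the dimmest, and holds nothing of the variation between embryos.

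Sox2, on chromosome 3 (34649995 to 34652461), had 1 probe set, 100009_r_at. Its log2 ratio of 1.06 was 2.78 times the technical spread at that signal. By log2 ratios taken with the pseudocount, Sox2 was the 1 gene of the 5 at least 2-fold higher, and 0 were at least 2-fold lower. Among all 5587 genes above the filter, 10.5% were at least 2-fold apart, 5.05% on the higher side and 5.48% on the lower. Those shares correspond to 282 and 306 genes, and after loess scaling the counts were 204 and 370. In the brightest signal class, where Sox2 lies, 2.98% of genes were at least 2-fold apart in either direction. Sox2 ranked 252 from the highest by log2 ratio. The suffix r marks a probe set whose design relaxed Affymetrix's selection rules, and 1 probe set leaves nothing to compare it with. The long noncoding RNA gene Sox2ot overlaps Sox2, and whether the probe set reads that RNA too was not tested.

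**Figure D1:**
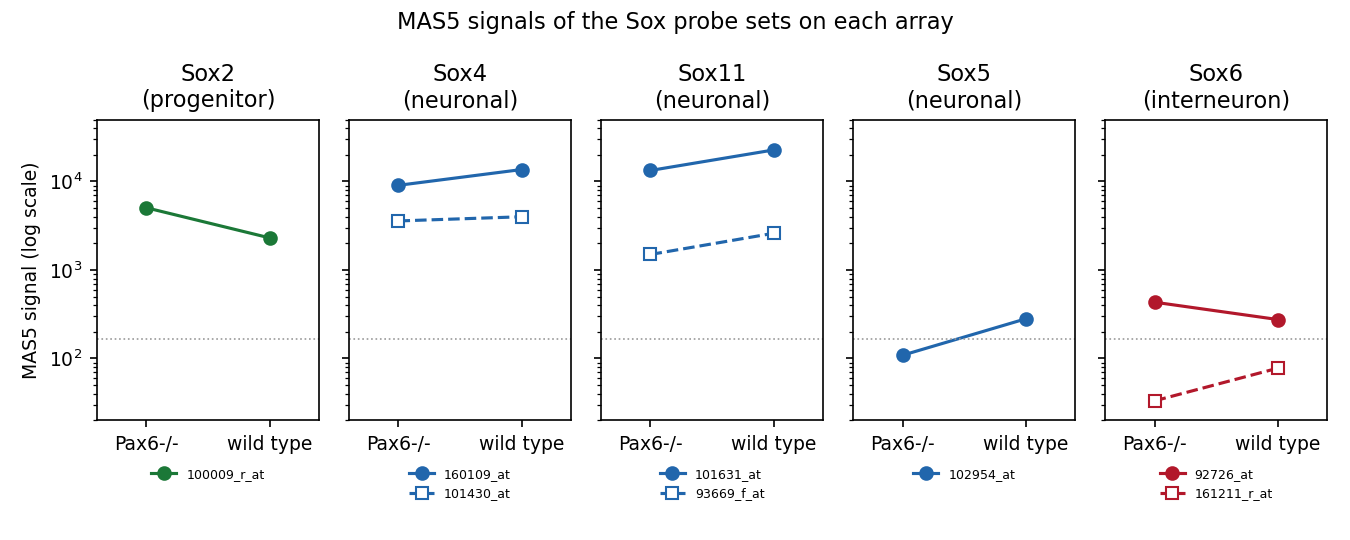
MAS5 signals of the 8 Sox probe sets (log axis) on the Pax6-/- array, left, and the wild type array, right. Each line joins 1 probe set, filled circles are the brightest probe set of a gene, open squares the second, and the dotted line is a signal of 165.8. Sox2 is higher on the Pax6-/- array (5041.7 against 2304.5), and both Sox11 probe sets and Sox5 are lower.

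Sox11 was lower in the mutant by both of its probe sets, and they gave the same size. Probe set 101631_at had a signal of 13315.7 in the mutant against 22705.4 in wild type. Probe set 93669_f_at, whose suffix f marks probes shared within a sequence family, had 1497.7 against 2598.4. Both log2 ratios were −0.81, or 2.13 times the technical spread. The gene spans 27334268 to 27342718 on chromosome 12. For 298 genes the mean log2 signal, averaged over their 2 brightest probe sets, fell in the brightest class. Of these genes 59.1% had both probe sets on the same side of equality, with a median distance of 0.33 between them.

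Sox4, the close relative of Sox11, was lower too, by smaller and less even amounts. Probe set 160109_at had a signal of 9049.3 in the mutant against 13638.5 in wild type, a log2 ratio of −0.63. Probe set 101430_at had 3581.2 against 3992.8, a log2 ratio of −0.20, 0.52 times the technical spread, and after loess scaling it stood at 0.04. The 2 ratios were 0.43 apart. The gene spans 28948919 to 28953699 on chromosome 13, where the noncoding gene Gm46405 overlaps it.

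Both subgroup C genes are among the brightest on the arrays, and bright genes as a whole were lower in the mutant. Sox11 ranked 25 and Sox4 ranked 48 by mean signal. Of the 200 genes with the highest mean signal, 84.0% were lower, with a median log2 ratio of −0.32. The median was −0.16 over the brightest class and 0.13 over the dimmest. Scaling that follows this trend brought the brightest Sox11 probe set to −0.45 with loess and −0.50 with quantile scaling, and that of Sox4 to −0.30 and −0.28. The family probe set of Sox11 moved less, to −0.65 and −0.66. Sox2, ranked 239 by signal, was shifted upward as well, to 1.29 and 1.27, and so away from equality.

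Sox5 had the largest ratio of the neuronal genes and the dimmest signal. Its probe set 102954_at had 108.8 in the mutant against 280.5 in wild type, a log2 ratio of −0.97, or 1.35 times the technical spread of 0.72. The mutant signal lay below the filter level, so Sox5 passed the filter only through its wild type signal. In the dimmest class 19.3% of genes were at least 2-fold apart. The ratio was −1.42 without a pseudocount and −0.59 with the larger pseudocount, and it lay past 2-fold in 4 of 7 alternatives. The gene spans 143828425 to 144782287 on chromosome 6, a length of 953.9 kb, and overlaps 6 annotated noncoding genes.

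Sox6 gave no common direction. Probe set 92726_at had 432.5 in the mutant against 275.6 in wild type, a log2 ratio of 0.48. Probe set 161211_r_at had 33.2 against 77.7, a log2 ratio of −0.52, with both signals below the filter and the pseudocount. Each ratio was smaller than the technical spread of 0.72, at 0.66 and 0.72 of it. The gene spans 115470872 to 116040776 on chromosome 7.

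**Figure D2:**
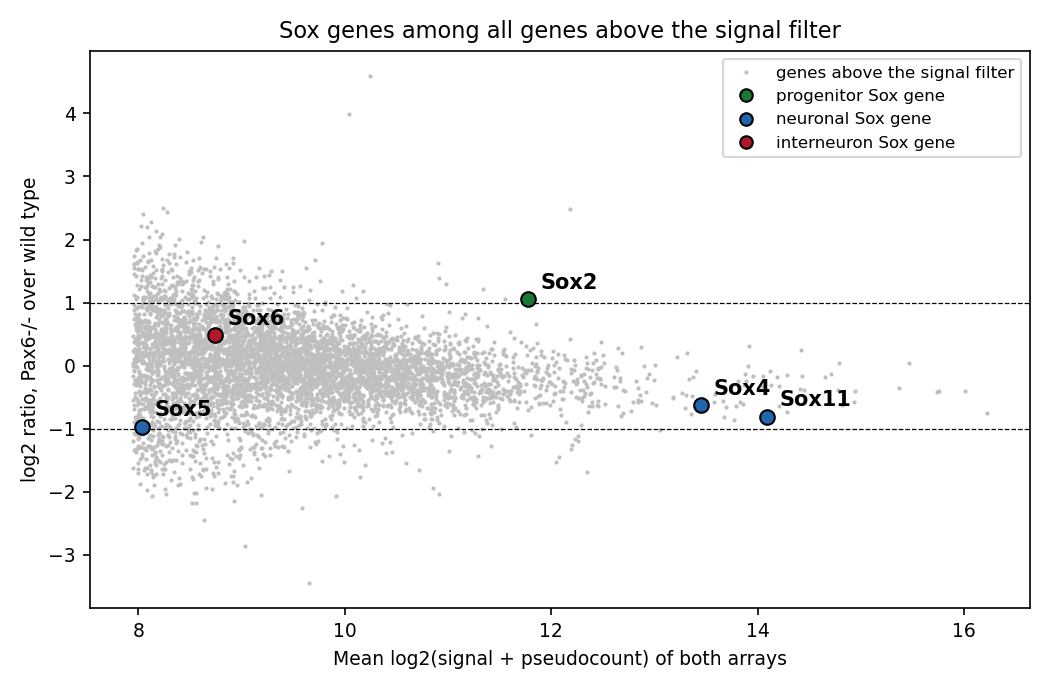
Log2 ratio, Pax6-/- over wild type, against mean log2 signal for 5587 genes above the filter (grey), with the 5 Sox genes coloured by role and dashed lines at 2-fold. Sox2 at 1.06 lies above the upper line, Sox4 at −0.63 and Sox11 at −0.81 lie at the bright end, and Sox5 and Sox6 lie where the cloud is wide.

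The contrast between progenitor and neuronal genes rests on 1 gene against 3. Sox2 minus the median of Sox4, Sox11 and Sox5 was 1.87 on the log2 scale, from 1.06 for Sox2 and −0.81 for the neuronal median. Sox2 exceeded Sox4 by 1.69, Sox11 by 1.87 and Sox5 by 2.03. Sox5 enters this median although it passed the filter only through its wild type signal. The difference lay between 1.63 and 1.90 over 8 alternatives. With the filter raised to the 60th percentile it was 1.78, and Sox5 was then left out of the neuronal median. Fewer cells of a type and less RNA per cell cannot be told apart in whole tissue. Likeness was the distance in log2 signal over both arrays, taken to 70 listed genes above the filter. The listed genes nearest to Sox2 were the intermediate filament gene Nes, at a distance of 0.65, and Stmn2, at 0.78. Those nearest to Sox4 were Nfib (0.39) and Tubb3 (0.68), those nearest to Sox11 Tubb3 (0.49) and Stmn1 (1.15), those nearest to Sox5 Vim (0.51) and Npy (0.55), and those nearest to Sox6 Nr4a2 (0.18) and Flt1 (0.21). These distances rest on 2 arrays and compare probe sets that differ in brightness for reasons other than RNA level. For the same reason, the ranks by signal given above are not an order of RNA levels between the Sox genes. A near gene need not share the log2 ratio. Nes was at 0.17 and Stmn2 at −0.04, against 1.06 for Sox2, while Nfib was at −0.51, against −0.63 for Sox4.

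**Figure D3:**
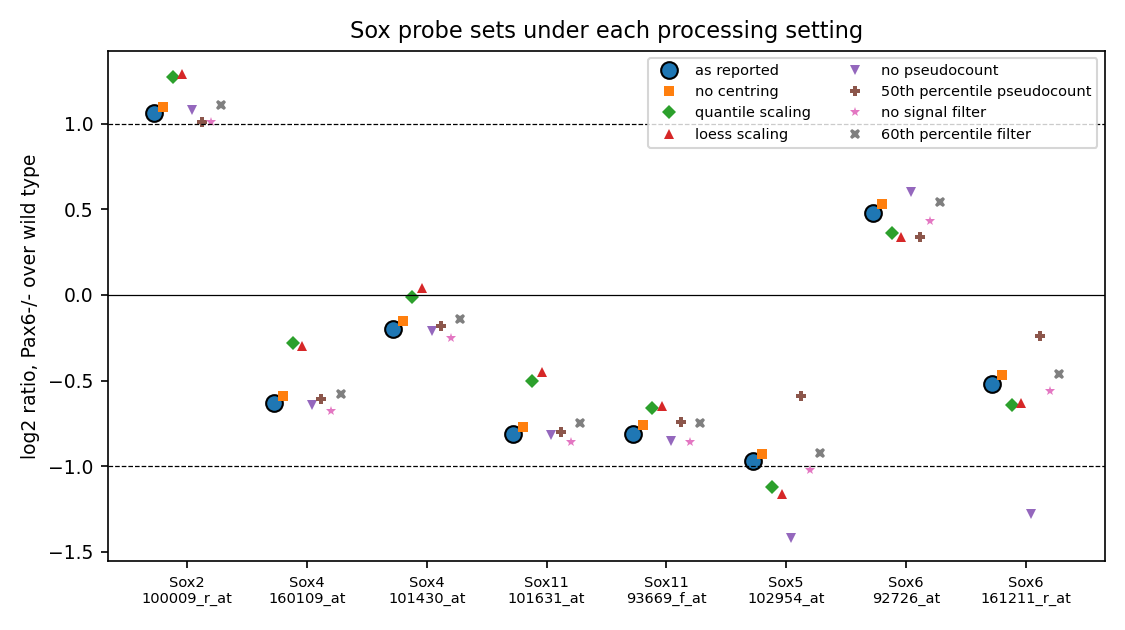
Log2 ratios of the 8 Sox probe sets as reported (large circles) and under 7 alternative settings, with dashed lines at 2-fold. Sox2 stays between 1.01 and 1.29 and Sox5 ranges from −1.42 to −0.59.

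The other Sox genes on the arrays did not share one direction. Of 16 further probe sets for 9 Sox and Sry genes, 9 passed the filter, 5 of them higher and 4 lower in the mutant. The higher ones came from 5 genes and the lower ones from Sox3 and Sox10 alone. Among all genes above the filter, 51.6% were lower. Subgroup B1, to which Sox2 belongs, was split. Sox1, a progenitor factor with overlapping function, had 523.1 in the mutant against 132.4 in wild type, a log2 ratio of 1.45 from a wild type signal below the filter level. Sox3, the third B1 gene, had 3 probe sets above the filter that disagreed, with log2 ratios of −0.02 (103302_r_at), −1.16 (103301_i_at) and −2.12 (92264_at). The first had 1228.9 in the mutant against 1206.9 in wild type and the second 575.1 against 1335.4. The third had 55.8 against 497.2, so its mutant signal lay below the filter level and the pseudocount and it passed through wild type alone. Its ratio ran from −3.21 to −1.30 over the alternatives. The remaining Sox3 probe set, 161276_i_at, lay below the filter and was at 0.06.

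Sox13, the remaining subgroup D gene, had 1599.1 in the mutant against 1278.4 in wild type, a log2 ratio of 0.26. Sox10, a subgroup E gene of oligodendrocyte precursors and neural crest, had 400.1 against 604.5, a log2 ratio of −0.56. Its other probe set, 100283_at, lay below the filter and was at −0.1. Of the endothelial subgroup F genes, Sox7 was at 0.28, and the Sox18 probe sets gave 0.59 above the filter and −0.73 below it. Sox17 was below the filter by both probe sets, at −1.09 and 0.59. Sox15 was at 0.05, and at −0.03 after loess scaling.

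**Figure D4:**
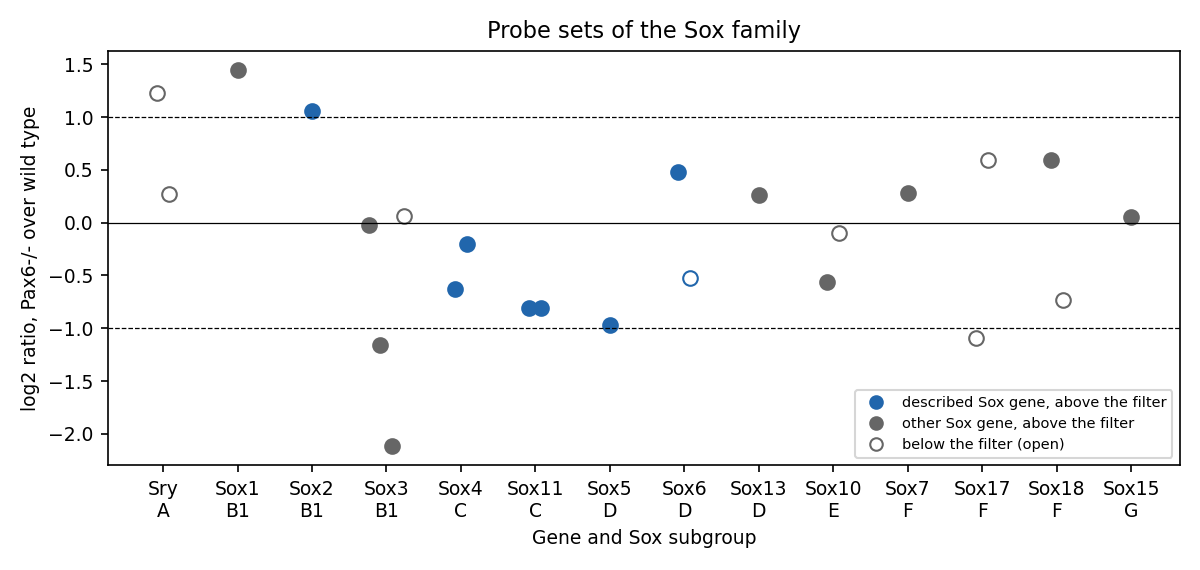
Log2 ratios, Pax6-/- over wild type, of every Sox and Sry probe set by gene and subgroup letter, with filled points above the signal filter and open points below it. Sox1 and Sox2 lie above the upper 2-fold line, and the Sox3 points run from near 0 to −2.12.

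Other genes of the cell types in which these Sox genes act were read from lists, beside a median of −0.02 over all genes above the filter, of which 51.6% were lower. In the brightest signal class, which holds many of the radial glia and newborn neuron genes, 65.5% were lower. Among radial glia genes, 16 passed the filter, 13 lower and 3 higher in the mutant (10 and 6 after loess scaling). Their median was −0.30, on the opposite side from Sox2. Sox1 was the 1 member at least 2-fold higher, and Aldoc and Id4 were at least 2-fold lower, at −2.05 and −1.66. Aldoc, a glycolytic enzyme gene of radial glia, had 884.7 in the mutant against 3782.2 in wild type. Id4, an inhibitor of bHLH factors, had 883.9 against 2880.8. Among genes linked to Sox2 in neural progenitors, Nes was at 0.17, Notch1 at −0.05 (its second probe set at 0.44), Hes5 at −0.25 and Gli2 at −0.49. Gli3, a relative of Gli2 that patterns the dorsal telencephalon, was at 0.89, with 635.3 in the mutant against 292.8 in wild type.

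Among genes of newborn neurons, 12 passed the filter, 10 lower and 2 higher in the mutant (7 and 5 after loess scaling), and the median was −0.28. Neurod1, a proneural factor, was the 1 member at least 2-fold lower, with 289.1 in the mutant against 888.9 in wild type. Map2 was at −1.0 by rounding and fell just short of 2-fold, though its raw ratio of 0.48 was past it. Gap43 was at −0.93 and Dcx at −0.51. Tubb3, a neuronal tubulin gene and a known target of Sox11, was at −0.25, and Tead2, a reported target of Sox4 and Sox11, at 0.15. The second Tubb3 probe set was at −0.14. Both Tubb3 probe sets carry the suffix f, and whether they read other tubulin genes too was not tested. The deep-layer and subplate list had 6 genes above the filter, 4 lower and 2 higher, and a median of −0.27. Tbr1, which specifies deep-layer neurons, had 2405.1 against 5088.0, Fezf2, a factor of subcortical projection neurons, was at −0.39, and Nr4a2, a subplate gene, was at 0.74.

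The interneuron and subpallial list had 16 measured members, of which 8 passed the filter, 5 higher and 3 lower. The median of those 8 was 0.92, with Dlx1, Dlx2 and Dlx5 at least 2-fold higher, at 4.59, 3.99 and 1.96. Dlx1 and Dlx5 passed through their mutant signals, and with no signal filter the list median was −0.13. Lhx6, a factor of the medial ganglionic eminence that lies upstream of Sox6 in migrating interneurons, had 361.9 in the mutant against 605.2 in wild type, a log2 ratio of −0.68. Npy was at −0.48 and Satb1 at −0.27, while Gad1 was at 0.97 and Slc32a1 at 0.88.

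**Figure D5:**
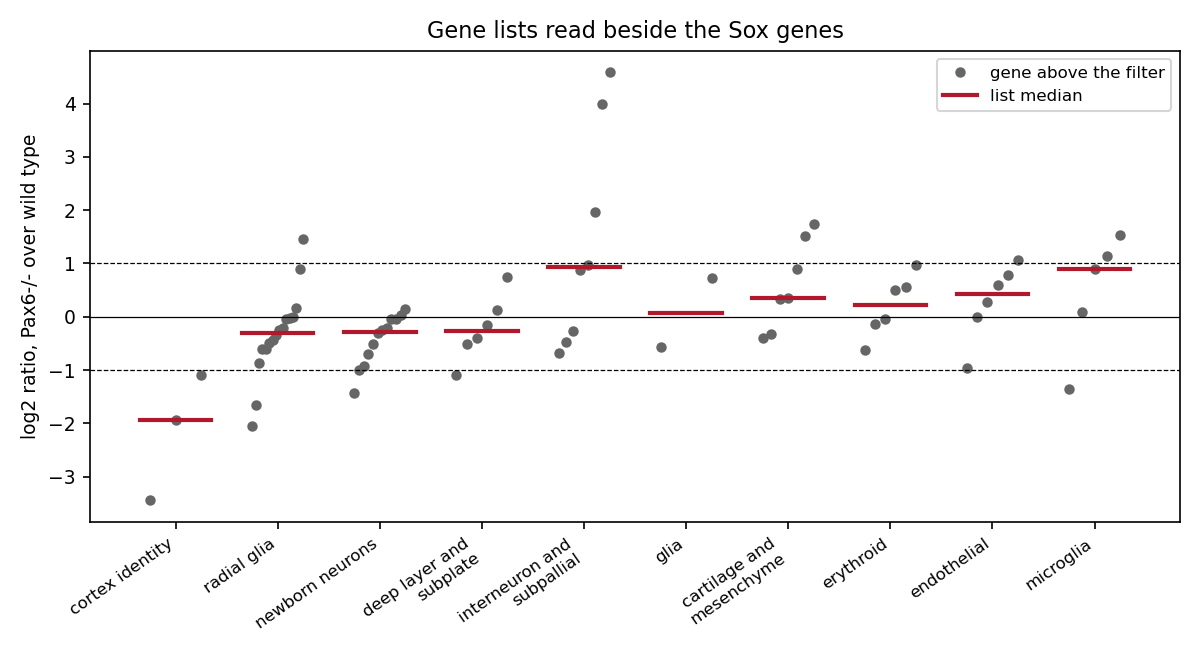
Log2 ratios, Pax6-/- over wild type, of genes above the signal filter in each list (points) with the list median (bars). Medians are −0.30 for radial glia, −0.28 for newborn neurons, −0.27 for deep layer and subplate and 0.92 for interneuron and subpallial genes.

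Pax6 itself had 446.7 in the mutant against 1169.0 in wild type. Of the 6 cortex markers 3 were measured, and Tbr1, Neurog2 and Eomes were all at least 2-fold lower in the mutant (median −1.94). Sox9, Sox5 and Sox6 also act in cartilage, Sox6 in red cell precursors, and subgroup F in blood vessels, so markers of those cells were read too. Cartilage and mesenchyme markers had a median of 0.35 (5 of 7 higher), with Col11a2 and Twist2 at 1.74 and 1.52. Summed signals here take the brightest probe set of every measured list member, including those below the filter. For this list they were 5165 in the mutant against 3254 in wild type. Col1a2 probe set 161156_r_at gave 2435.9 and 1828.4 of these, and its other probe set, below the filter, read 59.1 and 31.1. Col11a2, Foxc2 and Col1a1 had wild type signals below the filter level (52.1, 120.4 and 140.0) and passed through their mutant signals, so the count of higher genes is shaped by the filter. Erythroid markers had a median of 0.22 and sums of 14795 against 17084 (3 of 6 higher, or 5 of 6 after loess scaling, with Gata1 at 0.98, its second probe set at 0.03, and Hbb-y at −0.63). Gata1 and Slc4a1 passed the filter through their mutant signals. Endothelial markers had a median of 0.44 and sums of 2873 against 2423 (4 of 6 higher, with Cldn5 at 1.06 and Eng at −0.96). Sox18, among the higher ones, passed through its mutant signal, with 164.8 in wild type. Microglial markers had a median of 0.90 and sums of 3364 against 1840 (4 of 5 higher, or 3 of 5 after loess scaling, with Csf1r at 1.54, C1qb at 1.14 and Laptm5 at −1.36). The second probe sets of these 3 genes gave 0.34 for Csf1r, −0.93 for C1qb and, below the filter, 0.06 for Laptm5. The brightest Laptm5 probe set passed through its wild type signal, with 154.2 in the mutant. The glial list had 2 genes above the filter, Pdgfra at 0.72 and Sox10 at −0.56. That Pdgfra value passed the filter through the mutant signal, with 115.3 in wild type. A second Pdgfra probe set above the filter pointed the other way, at −1.08. It had 93.3 in the mutant against 277.1 in wild type, so it passed through its wild type signal. Of the markers of these other cells, Dcn, Foxc1, Alas2, Cdh5 and Aif1 were below the pseudocount on both arrays. The part of these cells in the Sox values was not tested.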

How the data were processed

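Per the labels, total RNA of cerebral cortex was labelled with biotin by the standard Affymetrix protocol. The authors deposited intensities, 1 MAS5 signal per probe set and array on a linear scale. MAS5 is named in the submitters' processing notes, with no version, scaling target or detection calls. The 2% trimmed mean was 500.2 on both arrays, and the medians were 283.7 (mutant) and 237.3 (wild type).

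Platform annotation gave 1 gene symbol for 10855 of 12488 probe sets, several for 396 and none for 1237. Control probe sets (66) were left unnamed. The pseudocount was the 25th percentile of all signals, the filter the 40th percentile of mean log2 values, and centring removed 0.05. In the counts, ranks, contrast and distances every gene, Sox genes included, was represented by its brightest probe set above the filter. Other probe sets of the Sox genes are given on their own. Genes 2-fold apart are counted by size. The technical spread is the SD of the difference between the 2 brightest probe sets of 894 genes, divided by the square root of 2. Named genes are all Sox probe sets, Pax6, list members at least 2-fold apart or with the 2 largest differences in their list, and the 2 listed genes nearest each Sox gene. Others, such as Lhx6, Notch1, Hes5, Gli2, Gli3, Gap43, Dcx, Fezf2 and Satb1, were chosen after their values were seen. The genes and lists were chosen with earlier results of these data known. The steps were tested on simulated arrays. The alternatives left out the centring, scaled the arrays by quantiles or by loess (fraction 0.4, 3 iterations), replaced the pseudocount by a floor (1st percentile) or by the 50th percentile, dropped the filter or raised it to the 60th percentile, averaged probe sets, took 1.5-fold and 3-fold thresholds and, added after seeing the data, kept probe sets without a suffix letter. Python 3.11.15, numpy 2.4.6, pandas 2.3.3, statsmodels 0.14.6 and matplotlib 3.10.9 were used.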

Additional observations from a re-analysis of the deposited data

How the results depend on the processing

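Of 56 recomputed ratios of the Sox probe sets, 55 moved by less than the technical spread, the exception being Sox6 probe set 161211_r_at, at −1.28 without a pseudocount. The number of Sox genes at least 2-fold lower, 0 as reported, was 1 (Sox5) with quantile scaling, loess scaling, no pseudocount or no signal filter, and 3 at 1.5-fold. The number higher, 1 as reported, was 0 at 3-fold and 0 with probe sets without a suffix letter, since that setting leaves Sox2 unmeasured and the progenitor contrast without a value. Among 90 list medians, 83 moved by less than 0.56. With the 60th-percentile filter the medians were 1.92 (interneuron), −0.50 (glia), 0.99 (cartilage) and −0.90 (endothelial); the interneuron median was −0.13 with no filter, and the microglial one 0.11 with the mean of probe sets and 0.21 without suffix letters. These settings change which genes or probe sets enter. Over all genes, higher and lower counts past 2-fold were 447 and 437 with no pseudocount, 90 and 128 with the larger pseudocount, 498 and 526 with no filter, 97 and 114 with the stricter filter, 785 and 844 at 1.5-fold, and 58 and 68 at 3-fold. No paired analysis was possible because each genotype has 1 array, and no array could be left out. Precision is limited by having 1 array per genotype.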

Other observations

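Some probe sets below the signal filter differed widely between the arrays, and were picked after their values were seen. Prox1, a homeobox gene of newborn neurons and endothelium, had a signal of 271.2 in the mutant against 22.7 in wild type. The Sry probe set 99556_s_at had 235.4 in the mutant against 49.7 in wild type, and the second, 99555_at, 27.0 against 5.51. Col2a1, a cartilage collagen gene and a target of Sox9 in cartilage, had 293.7 in the mutant against 38.0 in wild type. Egfr had 3 probe sets below the filter that did not share a direction, at 0.90, −0.51 and −0.11.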
